A study of Mus musculus with 3 samples.

Results

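The genes described here are the matrix metalloproteinases (MMPs), the ADAMTS proteases and the tissue inhibitors of metalloproteinases (TIMPs), which together cut the extracellular matrix and restrain that cutting. Members were all protein-coding genes of the deposited table whose symbol is Mmp, Adamts or Timp followed by a number (and, for some MMPs, a or b). The rule reads names and biotype alone. The rule found 46 of 39179 genes, with 23 Mmp, 19 Adamts and 4 Timp genes on 17 chromosomes. RNA came from mouse embryonic stem cells carrying a Cntn2:eGFP reporter and, from a lentivirus, mCherry under the Myh6 (αMHC) promoter, differentiated in culture, given sodium nitroprusside on day 4 and sorted after 25 days. The populations were eGFP-positive cells of dim mCherry (GFP), mCherry-positive cells (MHC) and cells without either colour (NEG). All 3 came from the same reporter line and all had received sodium nitroprusside, a nitric oxide donor, so no contrast shows an effect of the treatment. Each population had 1 library, so differences have no replicate check and come without p-values.

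MMPs are zinc enzymes made as inactive precursors. Secreted members diffuse or bind to the matrix, and membrane-type members act at the cell surface, where Mmp14 with the help of Timp2 activates Mmp2. ADAMTS proteases are secreted zinc enzymes with thrombospondin repeats that trim procollagens, cut proteoglycans such as aggrecan and versican, or act on microfibrils. TIMPs block the active site of MMPs, and Timp3 also blocks several ADAMTS proteases. In the heart these genes are known from valve and wall remodelling and from scar formation, and in cartilage and bone from matrix turnover during ossification.

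Values are read counts per gene divided by a size factor per library. Whole reads recovered from them numbered 52109065 in GFP against 52826956 in MHC and 47289405 in NEG, of which members held 0.583%, 0.544% and 0.396%. A gene was counted as higher or lower at 2-fold or more on the log2(value + 1) scale if it reached 20 in the higher of both libraries. This threshold is one of size alone, not of error. Folds are ratios of values, and their exact 95% intervals (Clopper-Pearson) cover counting error only. The labels were checked on marker genes. All 9 heart muscle markers were higher in MHC than in NEG, Cntn2 was highest in GFP, and the 10 epicardial and mesothelial markers were all higher in GFP than in either other library. Their summed value was 164729 in GFP against 6189 in MHC and 6119 in NEG. Heart muscle markers summed to 12391 in GFP against 237868 in MHC and 8529 in NEG, so by this sum GFP stood nearer to NEG than to MHC. Myh6 alone made up 186924 in MHC. Of the 9, 8 were lower in GFP than in MHC and 1, Myl2, lay within 2-fold. Against NEG, 3 were higher in GFP (Myl2, Myl7 and Ttn), 1 was lower (Nkx2-5) and 5 lay within 2-fold. The 10 osteoblast and osteocyte markers were all lower in GFP than in MHC and NEG and summed to 4595 in GFP against 422552 in MHC and 712346 in NEG, with none at 0. The 10 chondrocyte markers summed to 12401 in GFP against 303055 in MHC and 1145427 in NEG. Fibroblast markers summed to 1350522 in GFP against 5248847 in MHC and 5268291 in NEG, with Col1a1, Col1a2, Col3a1, Postn and Lum lower and Dcn, Pdgfra and Thy1 higher in GFP than in MHC. The part of these cell types in the results below was not tested. In RNA of sorted pools, fewer cells of a type and less RNA per cell cannot be told apart.

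Of the 46 members, 36 reached a value of 20 in GFP or MHC. Among them 7 were higher in GFP, 14 were lower and 15 lay within 2-fold. That is 58.3% past 2-fold, against 31.9% of the 20879 genes that reached the same level. The share lower in GFP was 38.9% for members and 16.4% for all genes, and the share higher was 19.4% for members and 15.6% for all genes. Among protein-coding genes, 32.5% differed. The median log2 ratio was −0.44 over these members and 0.01 over all genes. In 5 of the 36, the lower library had a value under 20. With counts scaled to CPM (each library set to the same total), which moved the median of all genes to 0.19, 10 members were higher and 13 lower. These were 23 of 36 members, against 33.4% of all genes past 2-fold with CPM. Against NEG, 37 members reached a value of 20, of which 8 were higher in GFP, 15 lower and 14 within 2-fold. Over all genes 29.1% differed between GFP and NEG, against 62.2% of members, with 40.5% of members and 15.0% of all genes lower in GFP, and 21.6% of members and 14.1% of all genes higher. The median was −0.38 over members and 0.02 over all genes. Both contrasts use the same GFP library. Between MHC and NEG 5 of 37 members differed, 4 higher and 1 lower in MHC, that is 13.5% of members against 10.6% of all genes (5.35% higher and 5.21% lower). The median log2 ratio was −0.01 over these members and −0.01 over all genes.

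**Figure D1:**
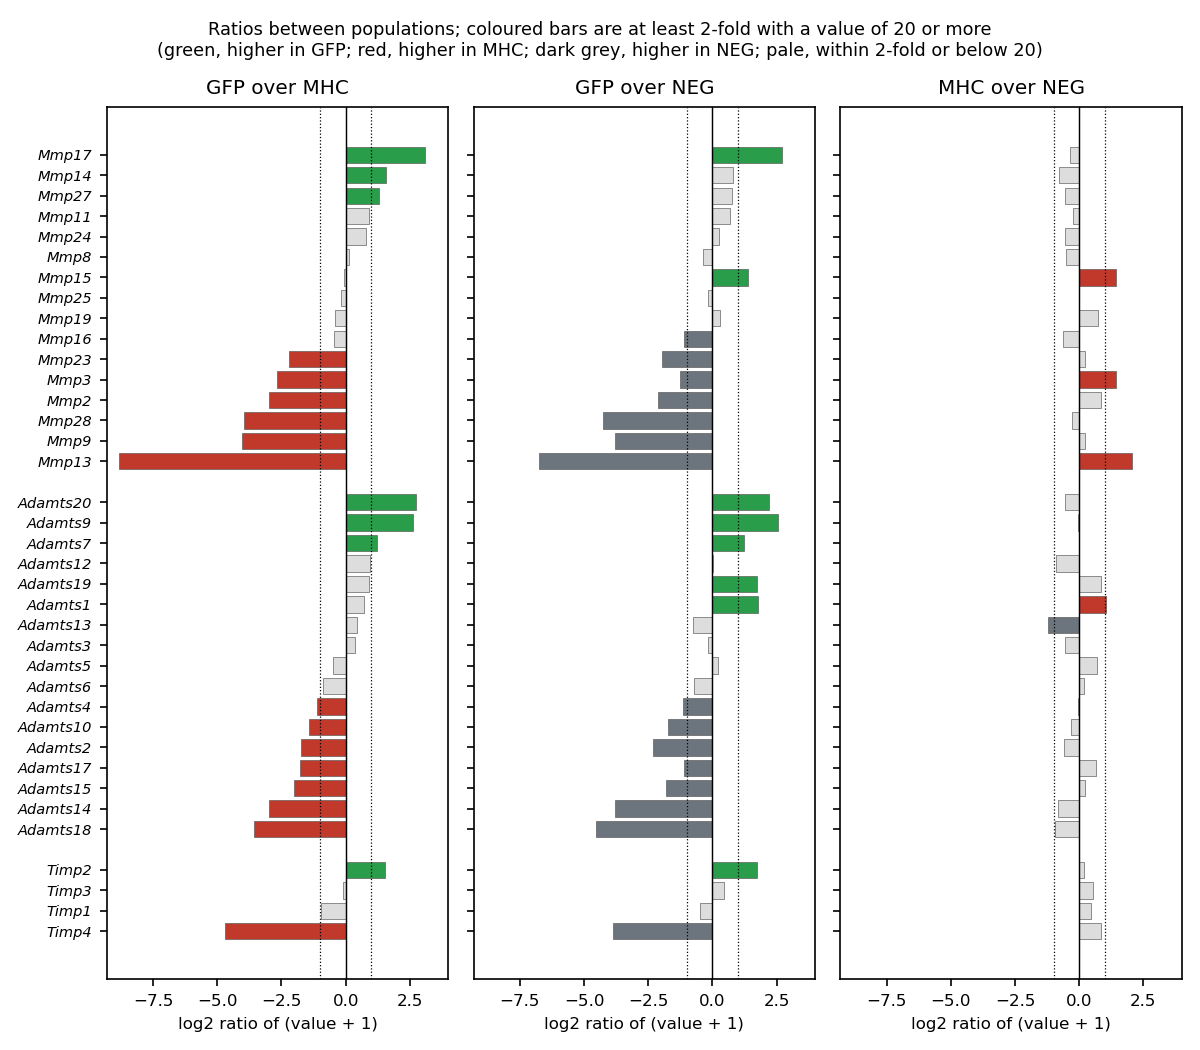
Horizontal bars give the log2 ratio of (value + 1) for the 37 members with a value of 20 or more in any library, in 3 panels for GFP over MHC, GFP over NEG and MHC over NEG, with dotted lines at 2-fold and colours for the higher library. Mmp13 has the longest bars to the left in the GFP panels (−8.83 and −6.76), Mmp17 the longest to the right (3.08 and 2.73), and most bars of the MHC over NEG panel lie inside the dotted lines.

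**Figure D2:**
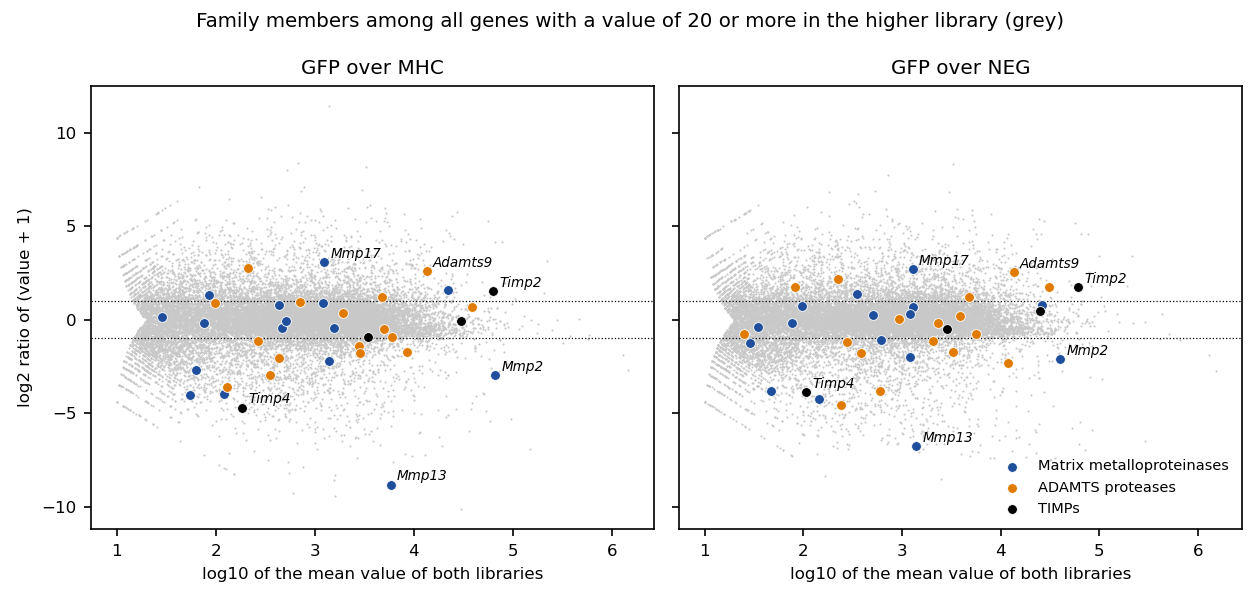
Each point is a gene reaching a value of 20 in 1 of the 2 libraries, placed by the log10 of its mean value (horizontal) and its log2 ratio (vertical), with all genes in grey and members in colour by family. Members lie on both sides of 0, with Mmp13 near the lower edge of all genes in both panels and Timp2, Adamts9 and Mmp17 above the dotted 2-fold line.

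The interstitial collagenases cut fibrillar collagen across its triple helix, and Mmp13 among them was the member with the widest range. Mmp13 (collagenase 3, ENSMUSG00000050578, chr9:7272514-7283333, mm10, plus strand) is known from hypertrophic cartilage and bone-forming cells. Its value was 24.7 in GFP against 11652 in MHC and 2776 in NEG, from 27, 11504 and 2457 reads. It was therefore near the minimum value of 20 in GFP and among the abundant members in MHC. Mmp13 was lower in GFP than in MHC by 472-fold (95% interval 324 to 717) and lower in GFP than in NEG by 112-fold (95% interval 77.1 to 171). It was also higher in MHC than in NEG by 4.20-fold (95% interval 4.02 to 4.39). The osteoblast and osteocyte markers went both ways between MHC and NEG, with Spp1 and Mepe higher, Ibsp and Phex lower and 6 within 2-fold. Chondrocyte markers were lower in MHC than in NEG for 8 of 10, Col10a1 and Ihh among them, and higher for 0. The part of these cell types in the Mmp13 values was not tested. Mmp8 (neutrophil collagenase) was low and close in all libraries, with a value of 30.2 in GFP against 27.3 in MHC and 39.5 in NEG. The rodent collagenases Mmp1a and Mmp1b did not reach a value of 20, and Mmp1a had 0 reads in every library, below a limit of 3 reads or a value of 2.74 in GFP against 3.04 in MHC and 3.39 in NEG.

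Mmp13 opens a cluster of 10 Mmp genes that spans 427 kb of chromosome 9 (chr9:7272514-7699585), followed by Mmp12, Mmp1b, Mmp3, Mmp1a, Mmp10, Mmp8, Mmp27, Mmp20 and Mmp7. Only 4 of the 10 reached a value of 20 in any library, and they did not share a direction. Mmp3 (stromelysin 1, ENSMUSG00000043613, chr9:7445822-7455972), which cuts proteoglycans and activates other MMPs, had a value of 16.5 in GFP against 110.4 in MHC and 40.7 in NEG. It was lower in GFP than in MHC by 6.71-fold (95% interval 4.05 to 11.7), as was Mmp13. It was lower in GFP than in NEG by 2.47-fold (95% interval 1.37 to 4.62), from 18 and 36 reads, a difference that lay under 2-fold with a pseudocount of 10 and was not counted with a minimum value of 100. Mmp27 (ENSMUSG00000070323, chr9:7571396-7581885), a stromelysin-like enzyme, ran the other way with a value of 122 in GFP against 48.6 in MHC and 71.2 in NEG, higher in GFP than in MHC by 2.50-fold (95% interval 1.79 to 3.55) and within 2-fold of NEG. Mmp8, which lies 2.9 kb before Mmp27, was within 2-fold in both contrasts. Without Mmp13 the cluster's values summed to 186 in GFP against 208 in MHC and 174 in NEG, whereas Mmp13 alone made up 11.7%, 98.2% and 94.1% of the cluster total.

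**Figure D3:**
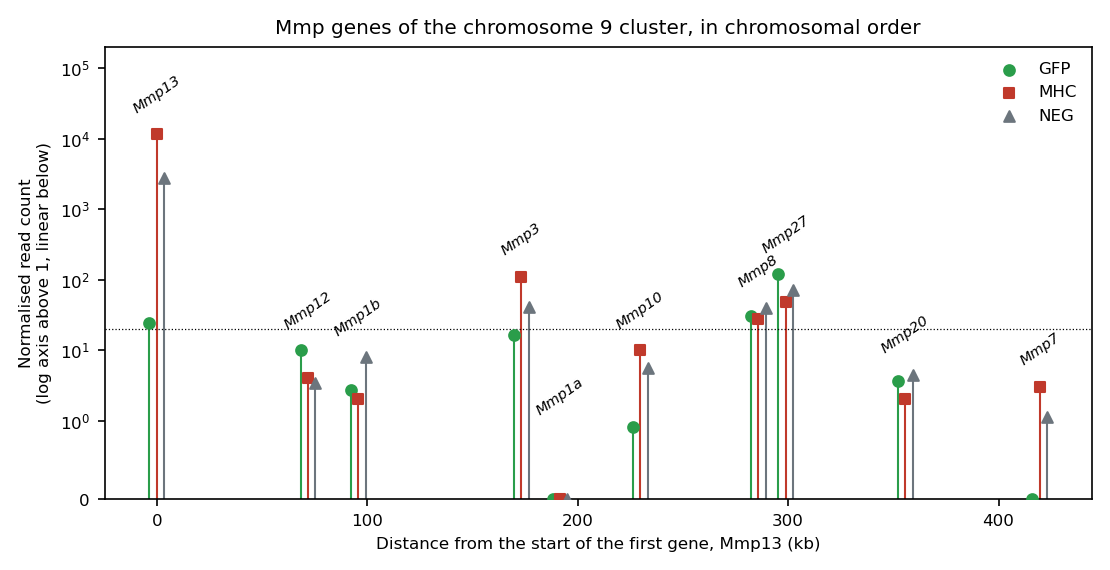
Stems give the normalised read count (log axis above 1) of each Mmp gene of the chromosome 9 cluster in GFP, MHC and NEG, placed by distance in kb from the start of Mmp13, with a dotted line at a value of 20. Mmp13 stands at 24.7 in GFP against 11652 in MHC and 2776 in NEG, and the highest value of any other gene of the cluster is 122, for Mmp27 in GFP.

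Promoter windows were read to show how the start sites of the cluster differ in sequence from those of other members. RefSeq windows of 250 bases before to 50 bases after a start site (GRCm38.p6) were found for 32 of 46 members. Adamts4, Adamts5, Adamts6, Adamts7, Adamts8, Adamts10, Adamts15, Adamts16, Adamts19, Mmp2, Mmp9, Mmp16, Mmp17 and Mmp19 had no entry. Printed are the windows of the cluster members that differed between GFP and MHC (Mmp13, Mmp3 and Mmp27) and of the members higher in GFP with the highest values and an entry (Timp2, Mmp14 and Adamts9). Each is written 5′ to 3′ on the gene's strand, and capitals mark TGANTCA (the AP-1 motif), ACCACA (RUNX motif), GGGCGG (GC box) and TATAAA, the core promoter box, searched on both strands with overlaps kept.
Mmp13 (chr9:7272264-7272563, plus strand): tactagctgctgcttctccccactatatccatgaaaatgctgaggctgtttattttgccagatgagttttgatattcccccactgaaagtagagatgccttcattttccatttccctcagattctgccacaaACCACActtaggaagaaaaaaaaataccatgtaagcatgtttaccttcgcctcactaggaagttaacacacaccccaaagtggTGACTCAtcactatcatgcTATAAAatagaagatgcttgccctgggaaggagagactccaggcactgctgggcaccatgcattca
Mmp3 (chr9:7445572-7445871, plus strand): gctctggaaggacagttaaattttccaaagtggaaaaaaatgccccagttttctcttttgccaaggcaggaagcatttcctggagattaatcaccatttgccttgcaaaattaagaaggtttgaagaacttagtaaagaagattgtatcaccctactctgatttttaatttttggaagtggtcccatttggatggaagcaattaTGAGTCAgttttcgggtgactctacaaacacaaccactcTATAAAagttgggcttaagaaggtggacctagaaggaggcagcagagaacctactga
Mmp27 (chr9:7571146-7571445, plus strand): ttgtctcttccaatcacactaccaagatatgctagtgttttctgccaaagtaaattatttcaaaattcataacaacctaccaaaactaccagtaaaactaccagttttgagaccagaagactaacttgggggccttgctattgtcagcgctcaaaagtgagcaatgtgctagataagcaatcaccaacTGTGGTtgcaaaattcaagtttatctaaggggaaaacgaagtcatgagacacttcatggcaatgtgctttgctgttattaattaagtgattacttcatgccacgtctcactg
Mmp14 (chr14:54431348-54431647, plus strand): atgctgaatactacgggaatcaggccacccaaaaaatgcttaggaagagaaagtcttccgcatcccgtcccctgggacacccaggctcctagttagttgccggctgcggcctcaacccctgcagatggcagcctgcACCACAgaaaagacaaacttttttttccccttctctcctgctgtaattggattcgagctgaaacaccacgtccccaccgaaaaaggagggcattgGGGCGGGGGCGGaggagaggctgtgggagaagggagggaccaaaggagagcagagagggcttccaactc
Timp2 (chr11:118355362-118355661, minus strand): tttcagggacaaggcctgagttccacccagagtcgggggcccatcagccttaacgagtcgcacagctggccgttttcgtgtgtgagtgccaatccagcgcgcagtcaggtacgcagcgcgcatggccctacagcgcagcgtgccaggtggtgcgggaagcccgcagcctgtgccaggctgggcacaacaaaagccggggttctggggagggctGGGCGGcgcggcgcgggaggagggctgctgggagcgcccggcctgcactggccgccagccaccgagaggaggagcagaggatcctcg
Adamts9 (chr6:92943485-92943784, minus strand): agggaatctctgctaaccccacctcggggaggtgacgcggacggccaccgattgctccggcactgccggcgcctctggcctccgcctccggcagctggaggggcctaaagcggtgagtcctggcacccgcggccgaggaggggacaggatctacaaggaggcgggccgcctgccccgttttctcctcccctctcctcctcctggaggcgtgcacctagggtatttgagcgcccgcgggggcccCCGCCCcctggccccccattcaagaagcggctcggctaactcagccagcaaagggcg
Positions count from the annotated RefSeq start site, and the start used in these cells was not read. In Mmp13 the RUNX, AP-1 and TATA letters began at positions −118, −35 and −16. In Mmp3 the AP-1 and TATA letters began at −46 and −7. TGANTCA stood in the windows of 8 of the 10 cluster genes, all but Mmp8 and Mmp27, and of 0 of the 22 other members, against 7.81% of all 32851 windows. TATAAA stood in 9 of 10 cluster genes, 2 of 22 others and 13.6% of all windows. GGGCGG stood in 0 of 10 cluster genes, 18 of 22 others and 35.7% of all windows. ACCACA stood in 4 of 10 cluster genes, 2 of 22 others and 16.8% of all windows. A match is a description of these letters. Mmp12, Mmp1b, Mmp1a, Mmp10, Mmp20 and Mmp7 held TGANTCA as Mmp13 did and stayed below a value of 20 in every library.

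Both gelatinases were lower in GFP. Mmp2 (gelatinase A, ENSMUSG00000031740, chr8:92827328-92853417), which cuts denatured collagen and basement membrane, had a value of 15017 in GFP against 117818 in MHC and 65027 in NEG, the highest of any MMP in MHC and NEG. It was lower in GFP than in MHC by 7.85-fold (95% interval 7.72 to 7.98) and lower in GFP than in NEG by 4.33-fold (95% interval 4.26 to 4.41). Mmp9 (gelatinase B, ENSMUSG00000017737, chr2:164940780-164955850), an enzyme of leukocytes and osteoclasts, was far lower in level, with a value of 5.48 in GFP against 105 in MHC and 89.2 in NEG. Mmp9 had 6 reads in GFP and was lower in GFP than in MHC by 19.2-fold (95% interval 8.53 to 53.5) and 16.3-fold lower than in NEG. With a pseudocount of 10 the log2 ratio was −2.90 over MHC and −2.68 over NEG, in place of −4.04 and −3.80, and with a minimum value of 100 Mmp9 was not counted against NEG. Macrophage and leukocyte markers summed to 10791 in GFP against 2988 in MHC and 2307 in NEG, of which Cd14 made up 7405 in GFP. Of the 8 that reached 20, 6 were higher in GFP than in MHC and 0 lower. That is 75.0% higher, against 15.6% of all genes. The counts against NEG were the same, with 14.1% of all genes higher. Itgam had a value of 262 in GFP against 400.1 in MHC and 427 in NEG and Lyz2 a value of 742 in GFP against 821 in MHC and 463 in NEG, both within 2-fold, and Ptprc stayed below 20 at 10.1 in GFP against 4.05 in MHC and 3.39 in NEG. Among osteoclast markers Ctsk was lower in GFP, Acp5 and Tnfrsf11a were higher, and Dcstamp, with 0 reads in GFP against 1 in MHC and 3 in NEG, was below the minimum in every library. The part of these cells in the Mmp9 values was not tested.

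Of the other stromelysins, Mmp11 (stromelysin 3, activated inside the cell by furin) had a value of 1571 in GFP against 838 in MHC and 988 in NEG, which lay just within 2-fold of MHC at 1.88-fold. Among the remaining MMPs outside the membrane-type class, Mmp23 (ENSMUSG00000029061, chr4:155650655-155653384) had a value of 492 in GFP against 2268 in MHC and 1941 in NEG. Mmp23 was lower in GFP than in MHC by 4.61-fold (95% interval 4.20 to 5.08) and 3.95-fold lower than in NEG. Mmp28 (epilysin) had a value of 13.7 in GFP against 229 in MHC and 278 in NEG, 16.7-fold lower in GFP than in MHC and 20.3-fold lower than in NEG. With a pseudocount of 10 its log2 ratio was −3.33 over MHC and −3.60 over NEG, in place of −3.97 and −4.24. It overlaps the gene 1700020L24Rik and is uncertain. Mmp19 stayed within 2-fold, with a value of 1341 in GFP against 1807 in MHC and 1099 in NEG, and overlaps Tmem198b. Mmp7 (matrilysin), Mmp10 (stromelysin 2), Mmp12 (macrophage elastase), Mmp20 (the enamel protease) and Mmp21 (known from left-right patterning) did not reach a value of 20 anywhere. Together with Mmp1a, Mmp1b, Adamts8 and Adamts16 they make 9 members below that level, with values of 0 to 15.8.

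**Figure D4:**
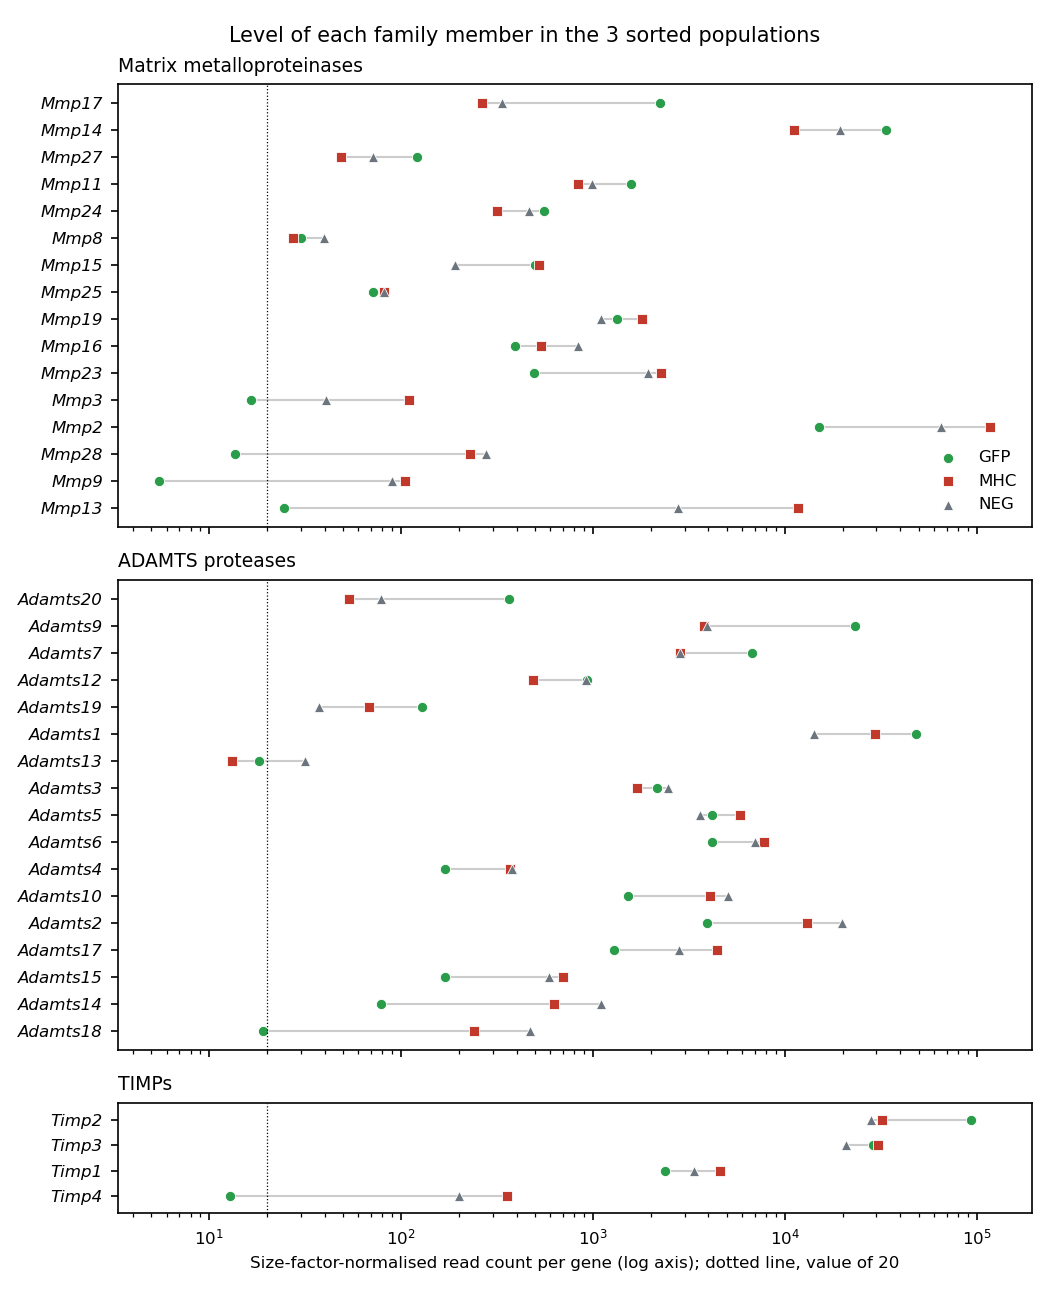
Points give the normalised read count (log axis) of the 37 members with a value of 20 or more in any library, by family and ordered by their GFP over MHC ratio, with circles for GFP, squares for MHC and triangles for NEG. The GFP point lies at least 2-fold from both other points for 19 of the 37, 14 below (among them Mmp13, Mmp9, Adamts18 and Timp4) and 5 above (among them Mmp17, Adamts9 and Timp2), and the MHC and NEG points of 32 lie within 2-fold of each other. Both distances use the same GFP library. The share of all genes at 2-fold from both was not computed, so the 19 cannot be set against a background.

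Of the 6 genes classed here as membrane-type MMPs (Mmp14, Mmp15, Mmp16, Mmp17, Mmp24 and Mmp25), 0 were lower in GFP than in MHC. Mmp17 and Mmp14 were higher and 4 lay within 2-fold. That is 33.3% past 2-fold, near the 31.9% of all genes, of which 16.4% were lower in GFP. So few genes do not set the class apart from all genes. Mmp17 (ENSMUSG00000029436, chr5:129584169-129608875), held at the membrane by a lipid anchor, had a value of 2233 in GFP against 263 in MHC and 337 in NEG, so GFP stood apart from both other libraries. It was higher in GFP than in MHC by 8.48-fold (95% interval 7.46 to 9.67) and higher in GFP than in NEG by 6.63-fold (95% interval 5.88 to 7.51). Mmp14 (ENSMUSG00000000957, chr14:54431604-54441258), the activator of Mmp2 and a collagenase of the cell surface, had a value of 33516 in GFP against 11131 in MHC and 19491 in NEG. It was higher in GFP than in MHC by 3.01-fold (95% interval 2.95 to 3.08), and at 1.72-fold it was within 2-fold of NEG. Mmp15, a close relative of Mmp14, had its lowest value in NEG, with a value of 501 in GFP against 523 in MHC and 192 in NEG, higher in GFP than in NEG by 2.61-fold (95% interval 2.19 to 3.12). Mmp16 was lower in GFP than in NEG by 2.15-fold (95% interval 1.90 to 2.42) and within 2-fold of MHC, with a value of 391 in GFP against 537 in MHC and 839 in NEG, and with CPM it lay within 2-fold of NEG too. Mmp24, known from neurons, had a value of 554 in GFP against 316 in MHC and 465 in NEG and overlaps BC029722. The lipid-anchored Mmp25 stayed between 71.3 and 81.3.

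Set against each other within a library, where the size factor cancels, Mmp14 and Mmp2 changed places. Per exon kb, the ratio of Mmp14 to Mmp2 was 1.26 in GFP against 0.0534 in MHC and 0.170 in NEG. The ratio of Timp2 to Mmp2 was 5.39 in GFP against 0.235 in MHC and 0.372 in NEG. Timp2 and Mmp14 stayed closer together, at a ratio of Timp2 to Mmp14 of 4.27 in GFP against 4.40 in MHC and 2.19 in NEG. These are ratios of RNA and carry no measure of active enzyme.

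The proteoglycan-cleaving ADAMTS genes went both ways. Adamts9 (ENSMUSG00000030022, chr6:92772699-92943492), which cuts versican and aggrecan, had a value of 23223 in GFP against 3789 in MHC and 3926 in NEG and was higher in GFP than in MHC by 6.13-fold (95% interval 5.92 to 6.34) and higher in GFP than in NEG by 5.92-fold (95% interval 5.71 to 6.13). MHC and NEG were alike in level, and GFP was the high library. Adamts20, related to Adamts9 and known from the belted coat of mouse mutants, showed the same order at a lower level, with a value of 367 in GFP against 53.7 in MHC and 79.1 in NEG, higher in GFP than in MHC by 6.83-fold (95% interval 5.12 to 9.27) and 4.64-fold higher than in NEG. Adamts1 (ENSMUSG00000022893, chr16:85793827-85803113), a versican-cutting enzyme needed for heart and ovary development in mice, was the most abundant of the ADAMTS genes per exon kb in every library. It had a value of 47976 in GFP against 29360.1 in MHC and 14143 in NEG, so all 3 libraries were spaced apart. Adamts1 was 1.63-fold higher in GFP than in MHC, which is within 2-fold, higher in GFP than in NEG by 3.39-fold (95% interval 3.33 to 3.46), and higher in MHC than in NEG by 2.08-fold (95% interval 2.03 to 2.12). Its neighbour Adamts5, an aggrecanase 55.1 kb away on chromosome 16, stayed within 2-fold throughout with a value of 4196 in GFP against 5837 in MHC and 3621 in NEG.

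Adamts15 and Adamts4, further proteoglycan-cutting enzymes, were on the low side in GFP. Adamts15 had a value of 170.0 in GFP against 695 in MHC and 591 in NEG and was lower in GFP than in MHC by 4.09-fold (95% interval 3.47 to 4.83) and 3.48-fold lower than in NEG. Adamts8, 20.1 kb from Adamts15 on chromosome 9, stayed below 20. Adamts4 (aggrecanase 1) had a value of 169 in GFP against 368 in MHC and 379.6 in NEG and was lower in GFP than in MHC by 2.17-fold (95% interval 1.82 to 2.61) and 2.24-fold lower than in NEG, and it lay within 2-fold in both contrasts when counts were scaled to CPM.

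The procollagen N-proteinases remove the amino-terminal propeptides of fibrillar procollagens. Adamts2 (ENSMUSG00000036545, chr11:50602084-50807573), the main enzyme for procollagens I to III, had a value of 3926 in GFP against 13041 in MHC and 19748 in NEG and was lower in GFP than in MHC by 3.32-fold (95% interval 3.21 to 3.44) and lower in GFP than in NEG by 5.03-fold (95% interval 4.86 to 5.20). Adamts14 (ENSMUSG00000059901, chr10:61197112-61273438) had a value of 78.6 in GFP against 625 in MHC and 1107 in NEG and was lower in GFP than in MHC by 7.95-fold (95% interval 6.34 to 10.1) and lower in GFP than in NEG by 14.1-fold (95% interval 11.3 to 17.8). Both had NEG as the highest library and GFP as the lowest. Adamts3, which also processes the lymphatic growth factor VEGF-C, did not follow them, with a value of 2149.9 in GFP against 1692 in MHC and 2455 in NEG, all within 2-fold. Type I collagen RNA was lower too in GFP, and Col1a1 had a value of 397562 in GFP against 2537347 in MHC and 2676319 in NEG.

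Among the other ADAMTS genes, Adamts18 (ENSMUSG00000053399, chr8:113697126-113848615) differed most, with a value of 19.2 in GFP against 241 in MHC and 468 in NEG. It was lower in GFP than in MHC by 12.6-fold (95% interval 8.03 to 20.7) and lower in GFP than in NEG by 24.4-fold (95% interval 15.7 to 39.8). The microfibril-associated Adamts10 and Adamts17, both genes of Weill-Marchesani-type syndromes in humans, were lower in GFP too. Adamts10 had a value of 1517 in GFP against 4053 in MHC and 5027 in NEG, 2.67-fold lower in GFP than in MHC and 3.31-fold lower than in NEG. Adamts17 had a value of 1284 in GFP against 4432 in MHC and 2806 in NEG, 3.45-fold lower in GFP than in MHC and 2.18-fold lower than in NEG, the second of which was under 2-fold with CPM. Adamts6, the closest relative of Adamts10, stayed just within 2-fold, with a value of 4192 in GFP against 7813 in MHC and 6971 in NEG.

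Adamts7 and Adamts12, which cut the cartilage protein COMP, were not lower in GFP. Adamts7 had a value of 6705 in GFP against 2854 in MHC and 2849 in NEG, higher in GFP than in MHC by 2.35-fold (95% interval 2.25 to 2.45) and 2.35-fold higher than in NEG, but it overlaps Tbc1d2b on the other strand and is uncertain. Adamts12 had a value of 932 in GFP against 487 in MHC and 917 in NEG, just within 2-fold of MHC at 1.91-fold. Adamts19, the closest relative of Adamts17, had a value of 128 in GFP against 67.9 in MHC and 37.3 in NEG. It was higher in GFP than in NEG by 3.43-fold (95% interval 2.34 to 5.18) and just within 2-fold of MHC at 1.89-fold. Adamts12, Adamts19 and Mmp11 were at least 2-fold higher in GFP than in MHC when counts were scaled to CPM. Adamts13, the von Willebrand factor protease of liver and endothelium, had a value of 18.3 in GFP against 13.2 in MHC and 31.6 in NEG, from 20, 13 and 28 reads.

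The TIMPs split, with Timp2 higher in GFP, Timp4 lower and Timp1 and Timp3 within 2-fold. Timp2 (ENSMUSG00000017466, chr11:118301069-118355740), the inhibitor that also takes part in Mmp2 activation, had a value of 93539 in GFP against 32043 in MHC and 27956 in NEG, the highest of any member in GFP. It was higher in GFP than in MHC by 2.92-fold (95% interval 2.88 to 2.96) and higher in GFP than in NEG by 3.35-fold (95% interval 3.30 to 3.39). Timp3, the matrix-bound inhibitor of MMPs and ADAMTS proteases, had a value of 28892 in GFP against 30654 in MHC and 20909.7 in NEG, lower in GFP than in MHC by 1.06-fold (95% interval 1.04 to 1.08). Timp1, a soluble inhibitor known to be induced by growth factors, had a value of 2386 in GFP against 4593 in MHC and 3359.6 in NEG, just within 2-fold of MHC at 1.93-fold. Timp4 (ENSMUSG00000030317, chr6:115245616-115251849), an inhibitor abundant in adult heart muscle, had a value of 12.8 in GFP against 357 in MHC and 199.9 in NEG. It was lower in GFP than in MHC by 27.9-fold (95% interval 16.4 to 51.5) and lower in GFP than in NEG by 15.6-fold (95% interval 9.07 to 29.2). With a pseudocount of 10 the log2 ratio was −4.01 over MHC and −3.20 over NEG, in place of −4.70 and −3.86.

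Timp1, Timp3 and Timp4 each lie within a synapsin gene on the opposite strand, which bears on how far their counts can be trusted. Each host held at least as many reads as its nested Timp in every library. Syn1 had 2689 reads in GFP against 4752 in MHC and 3096 in NEG, while Timp1 had 2610, 4534 and 2974 in the same order. Syn3 had 31668 reads in GFP against 30359 in MHC and 18546 in NEG, while Timp3 had 31608, 30263 and 18510. Nearly all synapsin reads at both places were thus those of the Timp span. For Timp1 the host's reads outside the Timp span, scaled to its length, came to 6.46 in GFP against 17.8 in MHC and 9.97 in NEG, and for Timp3 to 7.47, 12.0 and 4.48. Timp4 differed in this respect. Outside the Timp4 span Syn2 held 365 reads in GFP against 387 in MHC and 182 in NEG, which scaled to its length gives 16.1, 17.1 and 8.02 reads. Within the span were 14 reads in GFP against 352 in MHC and 177 in NEG. Gm17482, which overlaps Timp4 as well, gave 14.8, 27.9 and 17.0 reads by the same scaling. In GFP the reads over Timp4 were therefore no more than the density of the surrounding host gene, and how many of the 14 are its own cannot be told apart.

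Per kb of annotated exon (GENCODE M21), which allows levels of different genes to be compared, the family totals stood in different orders. Reads from introns are counted in these values, so long genes with large introns are set too high. MMP genes summed to 11937 per exon kb in GFP, 43438 in MHC and 25574 in NEG. ADAMTS genes summed to 13962 in GFP against 10906 in MHC and 8650.2 in NEG. TIMP genes summed to 30245 in GFP against 17221 in MHC and 13560.4 in NEG. The ratio of summed TIMP to summed MMP values was 2.53 in GFP against 0.396 in MHC and 0.530 in NEG. In MHC, Mmp2 made up 80.5% of the MMP total and Mmp14 4.30%, and in NEG they made up 75.4% and 12.8%. In GFP, Mmp14 led with 47.1%, followed by Mmp2 with 37.3% and Mmp11 with 4.74%. Adamts1 held 64.8% of the ADAMTS sum in GFP, against 50.8% in MHC and 30.8% in NEG. After it came Adamts9 with 11.1% in GFP, and Adamts2 with 12.8% in MHC and 24.5% in NEG. Timp2 made up 79.4% of the TIMP sum in GFP, against 47.8% in MHC and 52.9% in NEG.

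**Figure D5:**
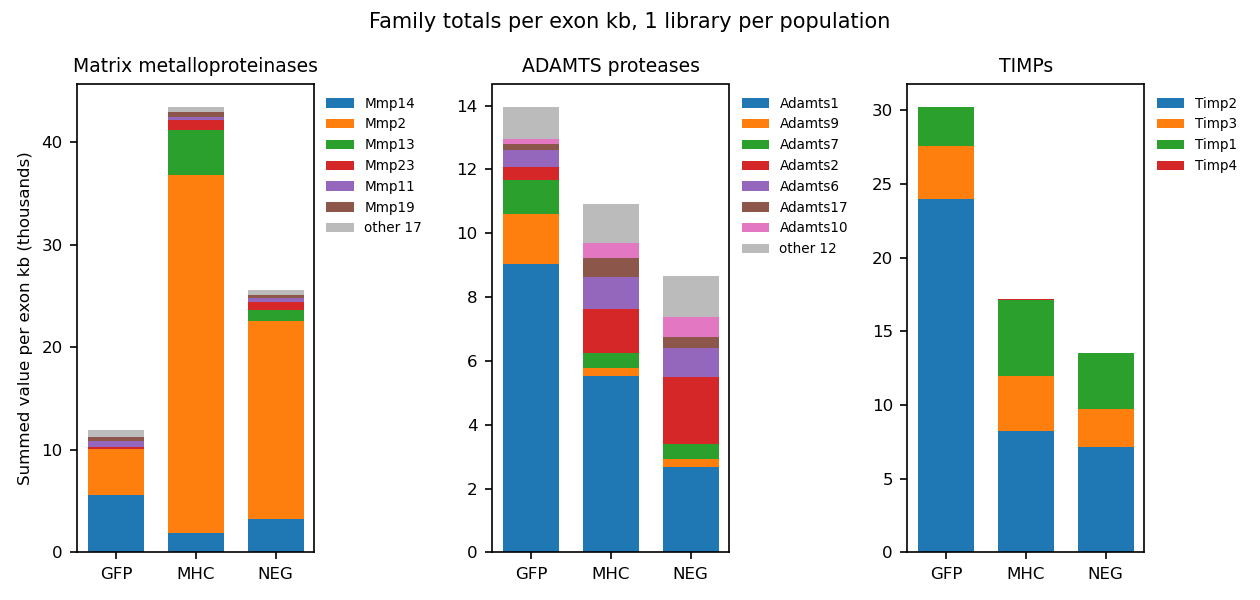
Stacked bars give the summed value per exon kb (axis in multiples of 1000) of the MMP, ADAMTS and TIMP genes in GFP, MHC and NEG (1 library each), with the leading genes in colour and the rest in grey. The MMP bar is lowest in GFP, with Mmp14 the taller and Mmp2 the next, and is mostly Mmp2 in MHC and NEG, whereas the TIMP bar is tallest in GFP, mostly from Timp2.

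Between MHC and NEG few members differed. The 4 that were higher in MHC were Mmp13, Mmp3, Mmp15 and Adamts1. Mmp15 was higher in MHC than in NEG by 2.72-fold (95% interval 2.28 to 3.26) and Mmp3 was higher in MHC than in NEG by 2.71-fold (95% interval 1.85 to 4.08). Adamts13, at 2.40-fold (95% interval 1.20 to 5.05), was the single lower member, and it rests on 13 reads in MHC and 28 in NEG. Just within 2-fold were Adamts18 at 1.94-fold lower and Adamts12 at 1.88-fold lower in MHC, and Adamts19 at 1.82-fold and Mmp2 at 1.81-fold higher in MHC. Of the chondrocyte markers 8 of 10 were lower in MHC than in NEG and 0 higher, that is 80.0% lower against 5.21% of all genes.

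Genes that activate or restrain these proteases also differed. Of 18 such genes 16 reached a value of 20 in GFP or MHC, with 3 higher and 8 lower in GFP and a median log2 ratio of −0.95, against 0.01 over all genes. Plau, the urokinase-type plasminogen activator which makes plasmin, itself an activator of several pro-MMPs, had a value of 14214 in GFP against 768 in MHC and 799 in NEG and was higher in GFP than in MHC by 18.5-fold (95% interval 17.2 to 19.9). The tissue-type activator Plat, picked out after its values were seen, stood at a value of 6370.1 in GFP against 1079.8 in MHC and 583 in NEG. Plasminogen itself (Plg) had 1 read in GFP, 3 in MHC and 0 in NEG. The protease trap A2m had a value of 9.14 in GFP against 149 in MHC and 119.7 in NEG, and the membrane serine protease Hpn a value of 12.8 in GFP against 94.2 in MHC and 105 in NEG. Bsg, the cell surface inducer of MMPs also called EMMPRIN, had a value of 19981 in GFP against 75208 in MHC and 55155 in NEG, 3.76-fold lower in GFP than in MHC. Reck, a membrane-anchored inhibitor of MMPs picked out after its values were seen, stood at a value of 2850.0 in GFP against 10613 in MHC and 7852 in NEG and was lower in GFP than in MHC by 3.72-fold (95% interval 3.58 to 3.88). Thbs1, a matrix protein that binds MMPs, had a value of 298059 in GFP against 111102 in MHC and 84294 in NEG. Past 2-fold were 68.8% of the list between GFP and MHC, against 31.9% of all genes. Against NEG, 3 of 16 were higher and 7 lower in GFP, 62.5% of the list and 29.1% of all genes. Between MHC and NEG 0 were higher and 1 lower, 6.25% of the list and 10.6% of all genes.

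The related proteases were mixed. Of 11 ADAM genes at a value of 20, 4 were higher and 2 lower in GFP than in MHC (median 0.82), and 3 were higher and 1 lower than in NEG, that is 54.5% past 2-fold against MHC (31.9% of all genes) and 36.4% against NEG (29.1% of all genes). Adam12, a disintegrin-protease of mesenchyme, had a value of 3428 in GFP against 679 in MHC and 2437 in NEG, Adam33 a value of 1067 in GFP against 249 in MHC and 323 in NEG and Adam9 a value of 10716 in GFP against 3469 in MHC and 3930.0 in NEG. Adam22, a neuronal disintegrin without protease activity, had a value of 239 in GFP against 2104 in MHC and 838 in NEG. Adam15 stayed within 2-fold and overlaps another gene, which makes it uncertain. Of 7 ADAMTS-like and papilin genes, which lack the protease domain, 3 were higher and 3 lower in GFP than in MHC (median −0.76). That is 85.7% of a short list, against 31.9% of all genes. Papln had a value of 963 in GFP against 135 in MHC and 131 in NEG and Thsd4 a value of 16438 in GFP against 2409.7 in MHC and 2294 in NEG, both higher in GFP. Adamtsl2 had a value of 252 in GFP against 5832 in MHC and 6177 in NEG and Adamtsl3 a value of 409 in GFP against 3906 in MHC and 2486 in NEG, both lower in GFP. Adamtsl1 lay within 2-fold. Of the cathepsins, Ctsk (the collagen-cutting cathepsin K) had a value of 117 in GFP against 4114 in MHC and 3113 in NEG and Ctss a value of 81.4 in GFP against 27.3 in MHC and 28.2 in NEG, with 1 of 7 genes higher and 1 lower in GFP than in MHC (median 0.13), a share of 28.6% that lay below the 31.9% of all genes, and Ctsl and Ctsb within 2-fold. Among 4 genes of procollagen C-proteinases and their enhancers at a value of 20, 2 were lower in GFP than in MHC and 0 higher (median −1.55), that is 50.0% lower against 16.4% of all genes. Against MHC the enhancer genes were the lower ones. Pcolce stood at 4047 in GFP against 26852 in MHC and 24693 in NEG and Pcolce2 at 50.3 in GFP against 907 in MHC and 5227 in NEG. The protease gene Bmp1 had a value of 3287 in GFP against 3829 in MHC and 6997 in NEG. Bmp1 was thus within 2-fold of MHC but 2.13-fold lower in GFP than in NEG. Against NEG 3 of the 4 genes were lower and 0 higher, that is 75.0% lower against 15.0% of all genes.

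Substrate genes were lower in GFP for most entries. Of 11 fibrillar collagen genes 10 were lower and 1, Col5a3, was higher in GFP relative to MHC (median −2.65), with 9 lower and 0 higher than in NEG. That is 90.9% lower than in MHC and 81.8% lower than in NEG, against 16.4% and 15.0% of all genes. Col11a2 had a value of 1132 in GFP against 41417 in MHC and 142417 in NEG, Col11a1 a value of 1859 in GFP against 51558 in MHC and 102681 in NEG and Col2a1 a value of 6314 in GFP against 94203 in MHC and 574523 in NEG, all of them cartilage collagens. Of 6 basement membrane collagen IV genes, 4 had lower values in GFP than MHC and 0 higher (median −1.63), 66.7% lower. Col4a1 had a value of 38174 in GFP against 125998 in MHC and 94998 in NEG and Col4a4 a value of 108 in GFP against 649 in MHC and 727 in NEG. Col4a1, Col4a2 and Col4a3 overlap other genes and are uncertain. Of 8 proteoglycan and other ADAMTS substrate genes at a value of 20, 5 were lower in GFP than in MHC and 0 higher (median −1.96), 62.5% lower. Acan (aggrecan) had a value of 415 in GFP against 12063 in MHC and 71155 in NEG, Comp a value of 2724 in GFP against 114515 in MHC and 164349.9 in NEG and Hapln1, a link protein, a value of 721 in GFP against 7289 in MHC and 43656 in NEG. Fn1 (fibronectin) stayed within 2-fold with a value of 472978 in GFP against 455161 in MHC and 387798 in NEG. Vcan (versican), the substrate of Adamts1 and Adamts9, picked out after its values were seen, stood at a value of 455 in GFP against 1270.2 in MHC and 2044 in NEG.

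Transcription factors known to act on MMP genes did not share a direction. Of 18 such genes 5 were higher, 5 lower and 8 within 2-fold between GFP and MHC (median 0.08), so 55.6% lay past 2-fold, against 31.9% of all genes. The AP-1 genes Fos and Junb were within 2-fold, at 59671 in GFP against 43455 in MHC and 38523 in NEG for Fos and 34419.9 in GFP against 33237 in MHC and 27186 in NEG for Junb. Fosl1, a further AP-1 gene picked out after its values were seen, stood at a value of 64.9 in GFP against 265 in MHC and 50.8 in NEG. Runx2, the regulator of osteoblasts and hypertrophic cartilage known to act on Mmp13, had a value of 288 in GFP against 4864 in MHC and 6415 in NEG and was lower in GFP than in MHC by 16.9-fold (95% interval 15.1 to 19.0). Runx3 had a value of 19.2 in GFP against 726 in MHC and 1476 in NEG and Etv5, a factor of the ETS family, a value of 2040.2 in GFP against 410.2 in MHC and 621 in NEG. Whether these factors bear on the levels of the protease genes was not tested.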

How the data were processed

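RNA from 3 sorted populations was analysed, with 1 library each. Per the labels' protocols, TruSeq libraries were read from a single end for 50 bases. The submitters' processing notes name STAR 2.3.0e, bedtools 2.17.0, FastQC 0.11.2 and DESeq2 1.2.10 with build mm10, and the steps they served are not given in the sources used here. Values deposited by the authors are signal, meaning counts of reads per gene over a size factor of the library. A read was worth 0.914 (GFP), 1.01 (MHC) or 1.13 (NEG), and 100% of values were whole multiples of that within 0.01. A single library per population leaves no degrees of freedom, so count models could not be fitted to the recovered reads.

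Ratios used log2(value + 1), which understates the differences of low genes. Intervals are exact 95% Clopper-Pearson intervals of a conditional binomial on recovered reads. Since PCR copies were not told apart, these intervals and the limits of 3 reads hold counting error alone. The host genes of the nested TIMPs, on the other strand, held at least the reads of those TIMPs, so reads were treated as counted over whole gene spans, introns included, and into each overlapping gene. A gene was called uncertain if the reads of an overlapping gene came to at least 25% of its own, which applied to 11 members. How many reads such genes have in common was not counted. Exon lengths came from GENCODE M21, matched by identifier for all 46 members. Named were all members at 2-fold or more in any pair, all TIMPs, members with a value of 1000 or more and those between 1.8-fold and 2-fold, and from each other list up to 3 genes by ratio and 2 by level. One entry of the ADAMTS-like list, Adamtsl6, is the same gene as Thsd4. Members and lists were chosen with earlier results of these data known. The promoter motifs were chosen after the data were seen. The computation was tested on simulated reads. Alternatives were other pseudocounts, minimum values, fold limits and scalings (CPM and the TMM factors of edgeR 4.0.16), and leaving out overlapped genes. Python 3.11.15, scipy 1.17.1 and pandas 2.3.3 were used.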

Additional observations from a re-analysis of the deposited data

How the results depend on the processing

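Of 72 member counts under the 8 alternatives, 61 stayed within 1.5 times the reported count. For 33 named members 774 ratios were recomputed. Other minimum values, the 4-fold limit and leaving out overlapped genes cannot change a ratio. A pseudocount can move a ratio but not change its sign. A change of sign was thus possible only with the scalings, and 0 were found where the member was counted as higher or lower. Of the 774 ratios 43 moved outside their counting interval, 34 with CPM, 6 with TMM factors and 3 with a pseudocount of 10 (Mmp9 in both GFP contrasts and Timp4 over MHC). At 4-fold, GFP over MHC had 13 of 36 members (3 higher), against 13.4% of all genes. GFP over NEG had 11 of 37 (3 higher and 8 lower), against 12.5% of all genes. MHC over NEG had 1 of 37 (1 higher and 0 lower), against 2.55% of all genes. The single member lower in MHC than in NEG, Adamts13, was lost with a pseudocount of 10 and with a value of 100 or more (0 each), and with no minimum value there were 2. Mmp3 between GFP and NEG was lost with a pseudocount of 10 and at a value of 100 or more, and Mmp9 at a value of 100 or more, which leaves fewer genes. Scaling to CPM moved the median log2 ratio of all genes from 0.01 to 0.19 for GFP over MHC and from 0.02 to 0.19 for GFP over NEG. Under it Adamts4 was lost from both contrasts and Adamts17 and Mmp16 from GFP over NEG. TMM factors changed no call of a member. Leaving out overlapped genes removed Adamts7, Mmp28 and Timp4 from both GFP contrasts. No paired analysis was possible because each population has 1 library. Depth limits Mmp9, Timp4, Mmp28, Mmp3, Adamts18 and Mmp13 in GFP, each with fewer than 30 reads there.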
